A study of Homo sapiens with 6 samples.

Results

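APOBEC3C, APOBEC3F and APOBEC3H are cytidine deaminase genes of the APOBEC3 cluster on chromosome 22. They were taken by symbol from a deposited table of genes that differed between mitoxantrone and DMSO, and are 3 of its 1305 genes. All 3 were higher with mitoxantrone. APOBEC3C, by far the most abundant per length, was 3.22-fold higher, APOBEC3H 7.32-fold higher from a very low level, and APOBEC3F 2.22-fold higher. The APOBEC3H fold rests on 12 reads over the DMSO libraries, and the APOBEC3F call did not hold under each alternative processing.

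APOBEC3 enzymes are zinc-dependent deaminases that turn cytosine into uracil in single-stranded DNA. They are known as innate restriction factors of retroviruses and retroelements, and several of them respond to interferon or to DNA damage. Uracil that they leave in the cell's own DNA is normally removed by repair enzymes, and deaminase activity is a recognised source of mutations in tumours. The family lies as a tandem row of genes with either a single deaminase domain (APOBEC3C and APOBEC3H are of this kind) or a pair of them (APOBEC3F).

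NCI-H292, a long-established human line grown from a lung carcinoma, was cultured for 48 hours with 50 nM mitoxantrone (3 libraries) or with DMSO, the solvent, at 1 in 1000 (3 libraries). Mitoxantrone intercalates into DNA and poisons type II topoisomerase, leaving strand breaks. By its title, the series concerns senescent cells, which no longer divide, and LUNX-directed therapy. The labels do not tell whether each library had its own culture, and p-values therefore capture the spread among libraries, which may be technical.

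The library totals behind the deposited FPKM (reads scaled to gene length and library total) were 14762544 to 17817782, as computed from the deposited values. The 3 genes chosen to describe the treatment all lie in the table of changed genes and were chosen with earlier results known. Their passing is therefore no independent check. CDKN1A, the cell cycle inhibitor p21, was 5.87-fold higher with mitoxantrone, and MDM2, the ubiquitin ligase of p53, 4.06-fold higher. TOP2A, the topoisomerase that the drug traps, was 2.08-fold lower. The epithelial keratins KRT8 and KRT18 had summed levels of 46889 to 63695 normalized reads with DMSO and 122465 to 152988 with mitoxantrone. Normalized reads are reads divided by the authors' size factor of each library. The other 6 of 8 epithelial markers were not in the table and not analysed here, nor was any of 10 lymphocyte markers. Of 7 myeloid markers, CD14 (57.3 ± 13.7 against 25.6 ± 1.78, SD, n = 3) and ITGAM (3.49 ± 2.17 against 21.4 ± 10.1, SD, n = 3) were listed, with summed levels of 48.1 to 74.5 with DMSO and 38.4 to 59.4 with mitoxantrone. Of 6 fibroblast markers, COL1A1 was listed, at 293 to 392 and 120 to 159. The part of these markers in the results was not tested. DMSO replicate 2 stood apart from its group: the chi-square per gene between it and another DMSO library was at least 21.7, against 11.8 between DMSO replicates 1 and 3. Mitoxantrone replicate 1 stood apart from its group as well, with 10.01 and 15.6 against 3.05 between mitoxantrone replicates 2 and 3.

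The coding sequence of the zinc motif shows what makes these genes a family and how close they are. A histidine codon, a glutamate codon, a proline codon and a pair of cysteine codons are in capitals, and the stretch between them is in lower case. Each sequence is 105 bases from the longest complete coding sequence of the gene in GENCODE 29, which holds 570 coding bases for APOBEC3C, 1119 for APOBEC3F and 600 for APOBEC3H. APOBEC3F holds the motif in each of its domains.
APOBEC3C: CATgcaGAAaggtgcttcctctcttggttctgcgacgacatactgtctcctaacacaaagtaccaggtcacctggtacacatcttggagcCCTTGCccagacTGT
APOBEC3F motif 1: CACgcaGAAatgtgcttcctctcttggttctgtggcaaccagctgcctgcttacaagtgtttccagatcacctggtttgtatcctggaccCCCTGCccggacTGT
APOBEC3F motif 2: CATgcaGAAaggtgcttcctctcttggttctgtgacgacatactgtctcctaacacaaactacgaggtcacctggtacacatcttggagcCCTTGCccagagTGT
APOBEC3H: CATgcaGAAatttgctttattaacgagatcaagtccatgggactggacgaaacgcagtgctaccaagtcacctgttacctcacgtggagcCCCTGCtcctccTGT

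APOBEC3C and the second motif of APOBEC3F were identical at 101 of 105 bases (96.2%), more than both APOBEC3F motifs were to each other (74.3%). APOBEC3H was the most distant, with 60.4% identity to APOBEC3C and 58.5% to the second APOBEC3F motif. Exact sequence shared between genes bears on how reads could be assigned. Over all annotated transcripts in GENCODE 29, 0 of 2784 distinct windows of 150 bases (the read length) in APOBEC3C and 0 of 1442 in APOBEC3H occurred in a transcript of any other gene. In APOBEC3F 230 of 3273 such windows (7.03%) did, of which 157 were shared with APOBEC3G and 73 with each of APOBEC3D and AL022318.4. With windows of 50 bases the shares were 1.28%, 0% and 21.0%. How reads from shared stretches were divided is not given in the sources used here. By shared sequence alone, leaving depth and overlapping genes aside, the APOBEC3F counts are the least certain of the 3. APOBEC3D and APOBEC3G were not in the table and not analysed here.

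APOBEC3C (ENSG00000244509, chromosome 22, 39410088 to 39416357, plus strand, 2818 bases of counted length) encodes a single-domain deaminase found in nucleus and cytoplasm. It had 769, 708 and 852 reads in DMSO replicates 1 to 3 and 1998, 2289 and 2035 in mitoxantrone replicates 1 to 3. Scaled to gene length and library total as FPKM, the values were 15.5, 15.9 and 17.0 with DMSO and 48.0, 51.9 and 48.7 with mitoxantrone. Each treated library lay far above each control library, and the lowest treated value was 2.99 times the highest control value in normalized reads. In normalized reads the mean was 707 ± 39.8 (SD, n = 3) with DMSO and rose to 2276 ± 101 (SD, n = 3). Fitted with edgeR, the log2 fold change was 1.69 with a standard error of 0.13, and the quasi-likelihood test gave an adjusted p of 2.9e-07 (Benjamini-Hochberg, 18313 tests). Reads in bulk RNA do not tell more transcript per cell from more cells that make it.

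APOBEC3F (ENSG00000128394, chromosome 22, 39436609 to 39449915, plus strand, 3242 bases of counted length) encodes a double-domain deaminase that can be packed into virus particles. Its reads were 49, 23 and 56 with DMSO and 77, 70 and 89 with mitoxantrone. In FPKM the levels were 0.86, 0.45 and 0.97 against 1.61, 1.38 and 1.85. The groups did not overlap, but they came closer than for the other members: the lowest treated value was 1.52 times the highest control value in normalized reads. DMSO replicate 2 was the lowest library. In normalized reads the DMSO mean was 37.9 ± 12.7 (SD, n = 3) and the mitoxantrone mean 85.2 ± 11.4 (SD, n = 3). The edgeR log2 fold change was 1.15 (SE 0.26), with an adjusted p of 0.0079 by the quasi-likelihood test. This call did not hold under each alternative, whose adjusted p in edgeR, DESeq2 or limma ran from 0.00039 to 1. It was 0.056 in edgeR without mitoxantrone replicate 3, 0.065 in limma on log2(FPKM + 0.1), and 1 in edgeR when TMM or DESeq2 factors from just the listed genes were used.

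APOBEC3H (ENSG00000100298, chromosome 22, 39493229 to 39500072, plus strand, 1251 bases of counted length) encodes a single-domain deaminase and is the last gene of the row. DMSO libraries held only 5, 4 and 3 reads, and mitoxantrone libraries 28, 27 and 21. This corresponded to 0.23, 0.2 and 0.13 FPKM against 1.52, 1.38 and 1.13 FPKM. Each control library held a handful of reads, and no control library reached the lowest treated one. In normalized reads the mean was 3.66 ± 0.95 (SD, n = 3) with DMSO and rose to 27.4 ± 4.60 (SD, n = 3), and the lowest treated library was 5.25 times the highest control library. The edgeR log2 fold change was 2.87 (SE 0.43), with an adjusted p of 1.8e-04 by the quasi-likelihood test. With 12 reads in all over the controls and 76 over the treated libraries, the ratio of summed reads corrected for library size was 7.53, and counting error alone allowed 4.07 to 15.2 (95% exact Clopper-Pearson interval). The same interval was 3.08 to 3.39 for APOBEC3C and 1.76 to 2.74 for APOBEC3F, so the depth leaves the size of the APOBEC3H rise the least certain.

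**Figure D1:**
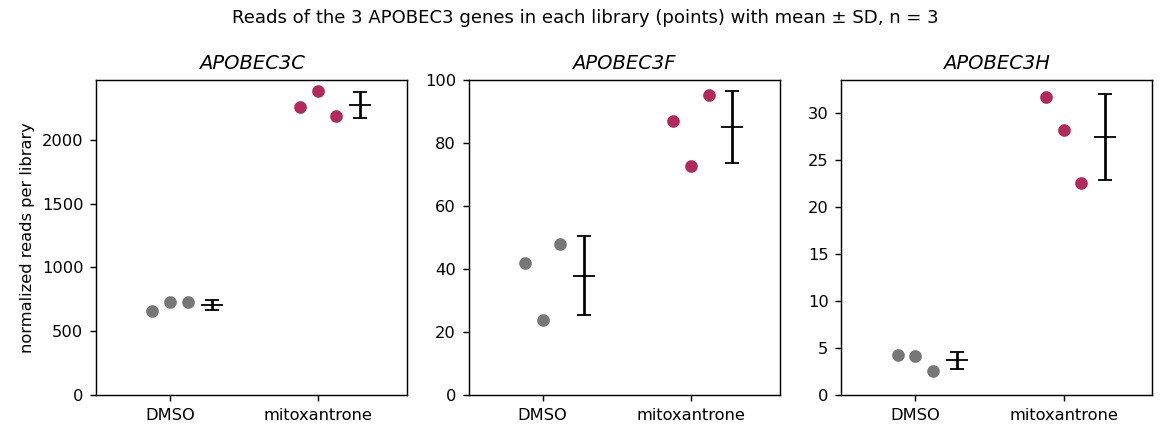
Normalized reads of APOBEC3C, APOBEC3F and APOBEC3H (vertical axes, each from 0) in the 3 DMSO libraries (grey points) and the 3 mitoxantrone libraries (red points), with black bars for mean ± SD. No treated point overlaps a control point in any panel, and the DMSO point at 23.7 for APOBEC3F is replicate 2.

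All 3 members thus passed as higher at an adjusted p of 0.05, with groups that did not overlap. In the table as a whole 56.7% of genes passed as higher, 35.3% passed as lower and 60.1% had higher groups without overlap. The authors had already selected these genes as changed, so the members' share is no result in itself. The authors listed 4.33% of about 18313 tested genes as higher and 7.13% in either direction. In the authors' deposited table the log2 fold changes were 1.66 with a standard error of 0.10 for APOBEC3C, 1.04 with 0.24 for APOBEC3F and 1.99 with 0.36 for APOBEC3H. The deposited value was thus lower than the fitted one for each member, most of all for APOBEC3H. Without DMSO replicate 2, the fitted log2 fold changes were 1.71, 0.92 and 2.95 in that order, and all 3 passed at 0.05 (largest adjusted p 0.012, in edgeR). Without mitoxantrone replicate 1 they were 1.69, 1.13 and 2.76, and all 3 passed again (largest adjusted p 0.016, in edgeR).

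**Figure D2:**
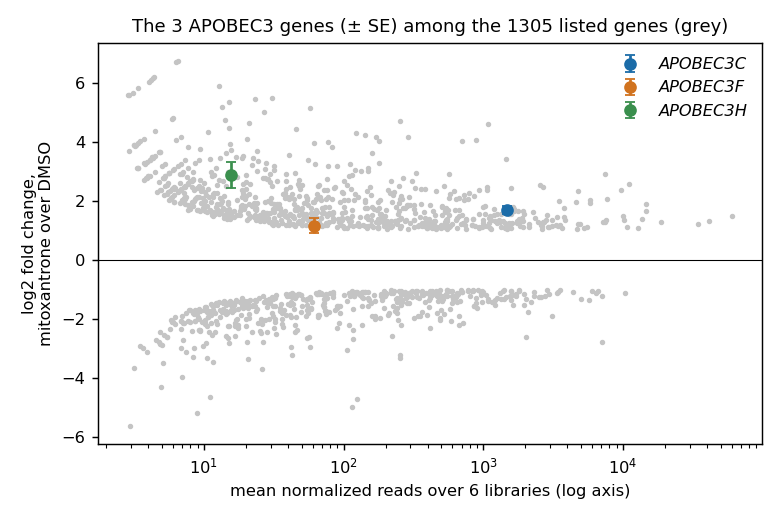
Log2 fold change of mitoxantrone over DMSO (vertical axis) against mean normalized reads over the 6 libraries (horizontal log axis) for the 1305 listed genes (grey) and the 3 APOBEC3 genes (coloured, ± SE). The empty band around 0 reflects the authors' fold threshold, APOBEC3F lies at its upper edge at 1.15 and APOBEC3H well above it at 2.87.

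Among the 793 listed genes with a higher fitted level, APOBEC3H ranked 125th by log2 fold change, APOBEC3C 426th and APOBEC3F 723rd, and the median of those genes was 1.74. By the authors' deposited log2 fold change the ranks were 133, 217 and 742 of 793 in that order, so the APOBEC3C rank depends on the fit. The order by level was different. Mean FPKM in DMSO libraries placed APOBEC3C at rank 156 of 1305, APOBEC3F at rank 720 and APOBEC3H at rank 1029. With mitoxantrone the ranks were 64, 622 and 666. Per length, APOBEC3C transcripts exceeded those of APOBEC3F 17.5 to 35.4 times in the DMSO libraries and 26.3 to 37.6 times in the mitoxantrone libraries. They exceeded those of APOBEC3H 67.4 to 131 times with DMSO and 31.6 to 43.1 times with mitoxantrone, ranges that did not overlap. APOBEC3F lay above APOBEC3H in each DMSO library, whereas with mitoxantrone their FPKM ranges overlapped (1.38 to 1.85 and 1.13 to 1.52).

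**Figure D3:**
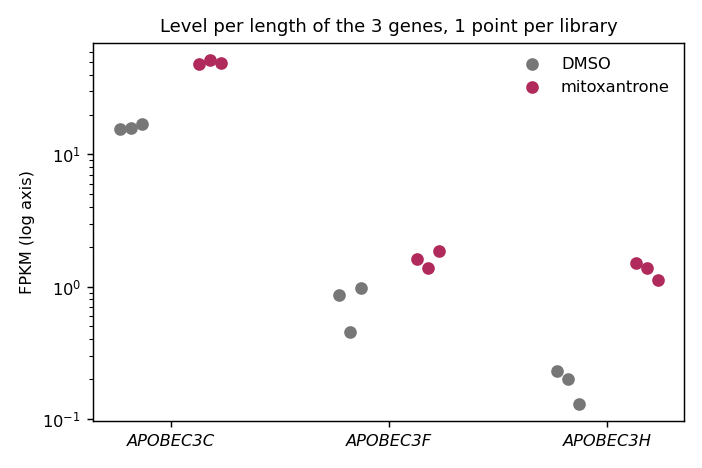
FPKM (vertical log axis) of the 3 genes, with 1 point per library, DMSO in grey and mitoxantrone in red. APOBEC3C stands at least 17.5 times above the others in each library. APOBEC3H equals APOBEC3F in mitoxantrone replicate 2 (1.38 FPKM each) and lies below it in each other library.

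The FPKM of the 3 genes together came to 17.1 ± 0.86 (SD, n = 3) in DMSO libraries and 52.5 ± 1.87 (SD, n = 3) in mitoxantrone libraries. APOBEC3C made up 94.5 ± 1.41% (SD, n = 3) of this sum in the controls and 94.4 ± 0.54% (SD, n = 3) in the treated cells. APOBEC3H moved from 1.10 ± 0.34% (SD, n = 3) to 2.56 ± 0.39% (SD, n = 3), and APOBEC3F from 4.42 ± 1.48% (SD, n = 3) to 3.08 ± 0.53% (SD, n = 3).

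Whether the members differed in the size of their change was tested with ratios of reads inside each library, which need no size factor. The APOBEC3H to APOBEC3C ratio was higher with mitoxantrone by 1.09 on the log2 scale, from a mean of -7.45 to -6.36, and the groups did not overlap. The APOBEC3H to APOBEC3F ratio was higher by 1.57, from -3.19 to -1.62, again without overlap. Each had p = 0.1 in a two-sided exact permutation test, which is the smallest value 3 against 3 libraries can give, and an adjusted p of 0.15 over the 3 pairs. The APOBEC3F to APOBEC3C ratio differed by -0.48, its groups overlapped, and the exact permutation p was 0.3. No pair could therefore pass 0.05 in this test.

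Replicate spread is given beside the spread from counting alone, and differences between the members were not tested. APOBEC3C varied by 5.63% of its mean among DMSO libraries and 4.46% among mitoxantrone libraries, against 3.59% and 2.18% from counting alone. APOBEC3F varied by 33.4% and 13.4%, against 15.3% and 11.3% from counting alone. For APOBEC3H the spread of 25.9% with DMSO was below the 50.0% that counting alone gives at 4 reads a library, and it was 16.8% against 19.9% with mitoxantrone.

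The members lie on the plus strand within 90.0 kb, in the table's coordinates, whose build is not given in the sources used here. Their starts differ from those of GENCODE 29 on GRCh38, while each gene spans the same number of bases there. APOBEC3F begins 26521 bases after the start of APOBEC3C, and APOBEC3H begins 83141 bases after it. In GENCODE 29, APOBEC3C overlaps the protein-coding locus AL022318.4, and no gene overlaps APOBEC3F or APOBEC3H. Whether counting used strand is not given in the sources used here. APOBEC3A and APOBEC3B, which precede APOBEC3C in the row, were not in the table and not analysed here.

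One further listed gene lay within 1 Mb of the members. RP4-742C19.12 (ENSG00000225720, 39487591 to 39488860, plus strand), which GENCODE 29 names AL031846.1 and classes as a transcribed unprocessed pseudogene, ends 4368 bases before APOBEC3H. It had 1, 4 and 2 reads with DMSO and 13, 11 and 10 with mitoxantrone, so its groups did not overlap either. Its edgeR log2 fold change was 2.46 (SE 0.60), with an adjusted p of 0.015 by the quasi-likelihood test. That call rests on few reads, and its adjusted p ran from 0.0014 to 0.59 over the edgeR, DESeq2 and limma alternatives. In edgeR it was 0.09 without DMSO replicate 1, 0.079 without DMSO replicate 3, 0.072 without mitoxantrone replicate 1, and 0.18 and 0.59 with TMM and DESeq2 factors over the listed genes. Its annotated transcripts shared no window of 50 bases with the 3 members. The other listed genes of chromosome 22 were far away, the nearest being C22orf23 at 1060 kb, and of the 21 on that chromosome 11 were higher and 10 lower.

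**Figure D4:**
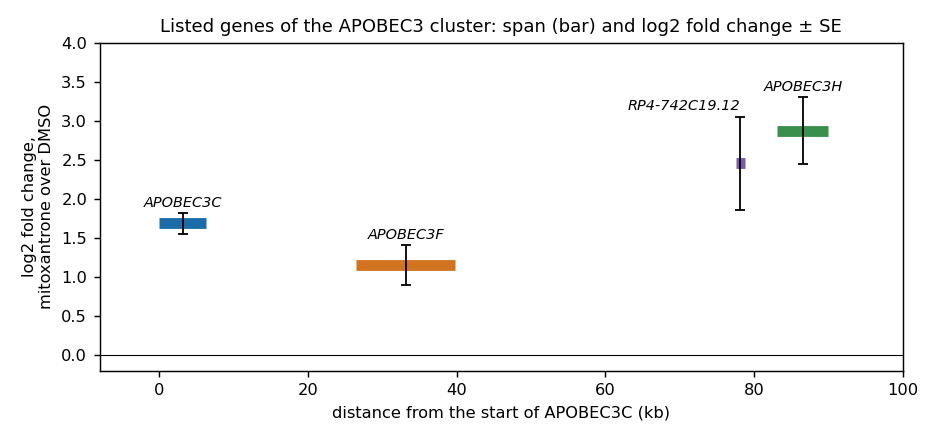
Listed genes of the APOBEC3 cluster by distance from the start of APOBEC3C in kb (horizontal axis) and log2 fold change of mitoxantrone over DMSO (vertical axis). Coloured bars give the span of each gene and black bars ± SE. All 4 genes lie above 0, and the largest fitted values are those of RP4-742C19.12 at 2.46 and APOBEC3H at 2.87, at the far end of the row. By the authors' deposited log2 fold change, RP4-742C19.12 was 1.33 (SE 0.40), below APOBEC3C at 1.66, so this order depends on the fit.

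Of the 3 members the RefSeq promoter table held APOBEC3H. Its window of 250 bases before to 50 bases after the gene's start is shown because this gene had the largest fold. It lies at chr22:39096994-39097293 on the plus strand of GRCh38.p14, and capitals mark its longest exact repeat.
APOBEC3H promoter: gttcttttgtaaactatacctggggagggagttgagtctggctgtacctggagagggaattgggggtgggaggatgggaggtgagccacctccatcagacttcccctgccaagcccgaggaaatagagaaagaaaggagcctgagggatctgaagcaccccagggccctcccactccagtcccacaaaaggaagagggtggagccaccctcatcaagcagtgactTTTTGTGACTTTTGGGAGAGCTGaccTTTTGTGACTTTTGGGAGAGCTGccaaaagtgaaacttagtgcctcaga
The repeat is 23 bases long. Its copies begin 25 bases before and 1 base after the first base of the gene. GC bases made up 53.3% of the window, against a median of 58.3% over 27305 promoters. Searched on both strands, the window held no match to GAAA followed after any 2 bases by GAAA (a core of interferon-response elements, in 3.65% of all promoters), TATAAA (11.95%), GGGCGG (44.6%), TTTGAA (15.4%), TGANTCA (7.76%), the p53 decamer (6.54%) or the NF-kappaB site (5.72%). These letters are absent from this window, which says nothing about the factors.

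Of the 11 genes on the list of related cytidine deaminases, the 3 members were in the table (27.3%, beside 7.13% of all tested genes). All 3 passed as higher, as did 56.7% of all listed genes. The members were taken from this table of changed genes, so neither share is a result about the family. The members' median log2 fold change was 1.69, against 1.74 over the 793 listed genes with a higher fitted level. The median over all listed genes, lowered ones included, was 1.26. The remaining genes of the list were not analysed here.

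Among 30 other restriction factors of viruses and retroelements, 5 were listed, of which 4 passed as higher and 1 as lower, with a median log2 fold change of 1.42. The 5 make up 16.7% of the list, beside 7.13% of all tested genes that were listed, and of all listed genes 56.7% passed as higher and 35.3% as lower. TRIM22, an interferon-induced ubiquitin ligase, had 775 ± 109.9 (SD, n = 3) normalized reads with DMSO and rose to 2525 ± 106 (SD, n = 3), 3.25-fold against 3.22-fold for APOBEC3C. SLFN5, a Schlafen family protein, rose 3.50-fold. The interferon-stimulated genes OAS2, an oligoadenylate synthetase, and IFIT2, an RNA-binding protein, rose 2.67-fold and 2.35-fold. SLFN11, a Schlafen protein that blocks stalled replication forks, had 669 ± 35.8 (SD, n = 3) with DMSO and fell to 296 ± 14.7 (SD, n = 3). With DESeq2 factors from just the listed genes, the adjusted p of OAS2 and of IFIT2 was 1, and with TMM factors that of OAS2 was 0.3 (in edgeR).

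Of 19 genes of uracil and abasic site repair and bypass, POLH, the translesion polymerase eta, was the 1 in the table (5.26%, beside 7.13% of all tested genes) and passed as higher, at 455 ± 88.3 (SD, n = 3) against 1029 ± 125 (SD, n = 3) normalized reads. Of 15 other deaminase and nucleotide pool genes, RRM2B, the ribonucleotide reductase subunit induced by p53, was the 1 listed (6.67%) and was 2.67-fold higher. Both shares lie near that of all tested genes. With DESeq2 size factors over the listed genes the adjusted p was 1 for POLH and 0.14 for RRM2B, and with TMM factors 0.13 for POLH (in edgeR).

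Of 27 transcription factors linked with APOBEC3 regulation, 6 were listed, with 1 higher and 5 lower and a median log2 fold change of -1.46. They make up 22.2% of the list, beside 7.13% of all tested genes, and 35.3% of all listed genes passed as lower and 56.7% as higher. RELB, a subunit of non-canonical NF-kappaB, was 2.07-fold higher, with an adjusted p of 0.72 and 1 under the TMM and DESeq2 factors over the listed genes (in edgeR). The cell cycle factors MYBL2, FOXM1, E2F1, E2F2 and E2F8 all passed as lower. MYBL2, a subunit of the activating MuvB complex, had 2416 ± 190.2 (SD, n = 3) with DMSO and fell to 841 ± 27.5 (SD, n = 3). E2F2 was the most reduced of the 5, 4.41-fold lower. The other factors of the list were not analysed here, and a link of the 6 listed factors to the 3 members was not tested.

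**Figure D5:**
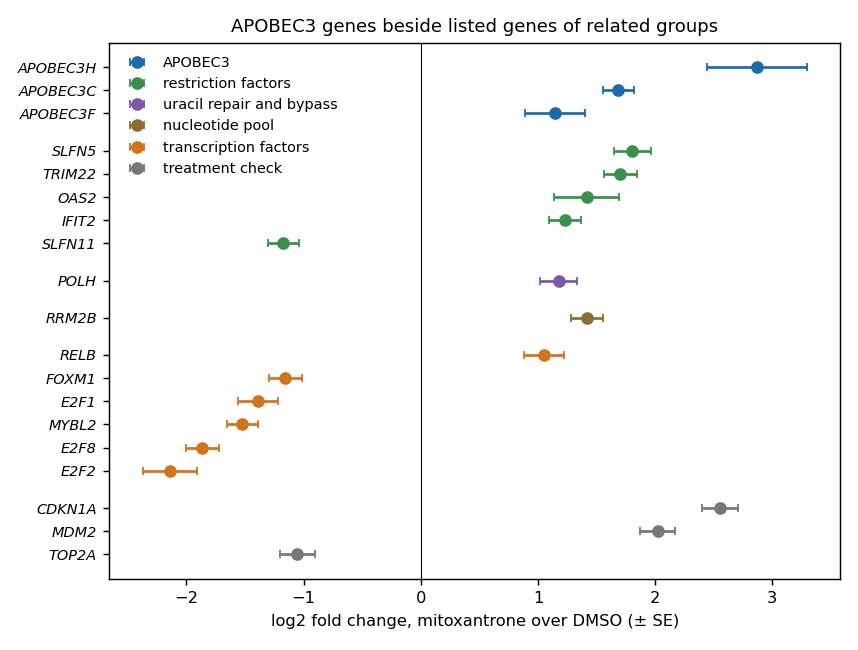
Log2 fold change of mitoxantrone over DMSO ± SE (horizontal axis) for the 3 APOBEC3 genes and the listed genes of the related groups (colours). Restriction factors lie on the side of the APOBEC3 genes except SLFN11 at -1.17, whereas the cell cycle transcription factors lie below 0.

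Listed genes of like abundance were ranked by how closely their centred log2 profile over the 6 libraries followed each member. For APOBEC3C the closest of 145 candidates were PLTP, a phospholipid transfer protein (root mean square difference 0.13 log2), TRIM22 (0.14) and SERPINB7, a clade B serpin (0.14). For APOBEC3F the closest of 299 were SPNS2, a sphingosine-1-phosphate transporter (0.12), PLA2G4D, a cytosolic phospholipase (0.16), and KLHDC7A, a kelch domain protein (0.17), all of which also had their lowest value in DMSO replicate 2. For APOBEC3H the closest of 339 were HTR7, a serotonin receptor (0.16), and the non-coding genes RP11-245M24.1 (0.19) and LINC01133 (0.24). The treatment difference dominates all these profiles, so the likeness describes these 6 libraries.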

How the data were processed

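RNA was sequenced as paired reads of 150 bases after poly(A) selection or ribosomal RNA removal, per the labels' protocols, which name both. Tools listed in the submitters' processing notes, with no roles, are HTSeq 0.6.1, Cufflinks 2.2.1, DESeq2, cutadapt 1.9.1 and HISAT2 2.0.1. The build and gene models were not given in the sources used here. Per the file headers, the authors' table holds raw read counts and FPKM per gene and library, the mean normalized count (a signal from the authors' scaling), and the authors' log2 fold change, Wald score, p-value and adjusted p-value. Each of its 1305 genes has an authors' log2 value beyond 1.0 in either direction, so fitted folds, dispersions and calls describe selected genes.

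Size factors (0.884 to 1.17) were solved from the counts and mean normalized counts with a largest relative error of 5.0e-10. Counts, lengths and FPKM gave the library totals, and these gave back 100% of FPKM values. The number of genes the authors tested, 18313, made 86.9% of ratios of adjusted to raw p whole ranks within 0.03, against 10.8% for the next best number. Counts of all listed genes were fitted with edgeR 4.0.16 (R 4.3.3) for treatment alone, without a filter, with Benjamini-Hochberg adjustment for 18313 tests and a threshold of 0.05. Since ranks cover listed genes only, the adjustment step can make adjusted p-values too large, not too small. Dispersions came from the same selected genes, and the effect of this on the p-values was not tested. Standard errors are the fold change over the root of F. The script was tested on simulated data. Alternatives used DESeq2 1.42.0, limma 3.58.1, TMM and DESeq2 factors over the listed genes, a low-count filter, a replicate block and leaving out libraries. Ratios between members added 0.5 reads and used exact permutation in scipy 1.17.1. Intervals cover counting error only.

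Named were the 3 members, all listed genes of the family, repair, nucleotide, restriction factor, transcription factor and treatment lists, listed genes within 1 Mb, and the 3 listed genes of mean within 2-fold whose log2(normalized reads + 1) profile was closest to each member. The members and lists were chosen with earlier results of these data known.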

Additional observations from a re-analysis of the deposited data

How the results depend on the processing

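APOBEC3C and APOBEC3H kept their direction and an adjusted p under 0.05 under all 13 alternatives. The authors had selected both genes as changed in these same libraries, so this is no independent support. The APOBEC3F log2 fold change of 1.15 was 0.46 with TMM factors over the listed genes, 0.16 with DESeq2 factors over them and 1.04 with limma on log2(FPKM + 0.1), none past 0.05. Those factors centre genes selected as changed and shifted the median of all listed genes by -0.69 and -0.99. With them APOBEC3C was 1.00 and 0.70 in place of 1.69, and APOBEC3H 2.195 and 1.8997 in place of 2.87. They left 878 calls (366 higher, 512 lower) and 731 (219 higher, 512 lower) in place of 1201 (740 higher, 461 lower). Leaving out 1 library gave 1.64 to 1.72 for APOBEC3C, 0.92 to 1.35 for APOBEC3F, 2.66 to 3.01 for APOBEC3H and 1021 to 1178 calls. The log2 ratio differences were then 0.85 to 1.25 for APOBEC3H to APOBEC3C, 1.16 to 1.97 for APOBEC3H to APOBEC3F and -0.80 to -0.30 for APOBEC3F to APOBEC3C. Same-numbered libraries did not deviate together (r across genes -0.23, -0.15 and 0.03), and a replicate block gave 1.69, 1.19 and 2.87 for APOBEC3C, APOBEC3F and APOBEC3H and 1199 calls. The 30 other named genes kept their sign throughout, and 31 of their 389 values no longer passed 0.05. Depth limits APOBEC3H, with 12 reads over the DMSO libraries.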
